A study of Mus musculus with 7 samples.

Results

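The 50 genes described here encode proteins that copy the genome and divide it between daughter cells. There are 23 genes of DNA replication and entry into S phase and 27 genes of mitosis, out of 16167 genes in the deposited table. They were chosen by symbol from their known functions and not by a measured value, though with earlier results of these data known. All 50 were found. All 50 also passed the filter on low values, an FPKM (fragments per kilobase of gene, scaled to library size) of at least 1 in at least 3 libraries, which 13466 of the 16167 genes passed. Whole kidneys of mouse embryos at E15.5 (embryonic days) were sequenced in 7 libraries. The 4 mutant libraries are labelled Six2-Cre; Irx3/5(loxP/loxP): both copies of the neighbouring homeobox genes Irx3 and Irx5 are flanked by loxP sites, and Cre recombinase is driven by Six2, a gene of the nephron progenitors. The 3 control libraries are labelled Irx3/5(loxP/+), so controls carry 1 floxed copy, and they are entered as WT in the genotype field. No Cre is named for them, so the presence of the Cre transgene and the loss of Irx3 and Irx5 cannot be told apart. Ureteric bud, stroma and vessels, which Six2-Cre is not known to target, are part of the organ sampled. The labels give littermates but not the number of embryos behind a library, and each p-value therefore reflects only how far these 7 libraries scatter, which may be in part technical.

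A cell that commits to division makes cyclin E, which with its kinase partner starts S phase. Cdc6 and Cdt1 load the Mcm helicase onto replication origins, Cdc45 and the GINS complex switch the helicase on, and polymerases held by the Pcna clamp copy the strands from a pool of deoxynucleotides. Cyclin B and Cdk1 then drive the cell into mitosis, kinesins and microtubule binding proteins build the spindle, and the spindle checkpoint holds back the anaphase promoting complex until all chromosomes are attached. Replication genes are classical targets of E2F factors, and many mitotic genes are controlled through CCAAT boxes and the cell cycle genes homology region (CHR). In the embryonic kidney many cells divide, among them nephron progenitors, ureteric tips and stroma. In RNA from a whole organ, fewer dividing cells and less RNA of these genes per cell cannot be told apart.

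Depth ran from 40511920 to 69028943 reads in listed genes per library, and each of the 50 genes had between 1237 and 33547 reads in every library. Irx3, the check of the labels, stood at 14.7, 14.2 and 12.7 FPKM in controls against 6.63, 3.99, 5.57 and 6.75 FPKM in the mutants (two-sided exact permutation test over 35 splits, p = 0.0286, the smallest that 3 against 4 allows). Irx5 was near the filter in both groups, at 1.36, 1.55 and 1.59 FPKM in controls against 2.05, 0.895, 1.13 and 2.03 FPKM in mutants, and did not separate them (exact permutation p = 0.886). Markers of several cell types moved with genotype. Summed FPKM of 13 nephron progenitor markers was 338 to 346 in controls and 237 to 270 in mutants, where Cited1, Uncx and Tmem100 were among the 7 that fell and 1 rose. Of 8 podocyte markers 4 fell in limma, Wt1 and Nphs1 among them (187 to 205 against 121 to 142 FPKM summed). Of 8 tested proximal tubule markers Apom, Slc22a6 and Slc3a1 fell (82.5 to 100.1 against 27.6 to 59.4 FPKM summed over the 9 listed). All 8 podocyte and all 8 tested tubule markers had log2 differences below 0. All mutants lay below all controls for 8 and 7 of these, beside 8.61% of all genes tested. The authors' deposited table called 8 and 6 lower, beside 5.69% of the same genes called in either direction. Calb1, 1 of 10 ureteric tip markers, and Aldh1a2, Cldn11 and Ntn1, 3 of 13 stromal markers, rose. Of the ureteric tip markers 7 lay above 0 and 3 below; in those 3 all mutants were below all controls, and the authors' deposited table called 2 of them lower. In limma 0 of 8 endothelial, 0 of 7 erythroid and 0 of 9 macrophage markers passed, against 1.53% of all genes tested. At an unadjusted p under 0.05 limma had 1, 0 and 6 of them, all higher in mutants, beside 5.26% of all genes. The authors' deposited table called 1 macrophage marker. Summed macrophage markers were 33.3 to 34.4 FPKM in controls and 40.1 to 45.7 in mutants. Endothelial markers summed to 195.2 to 202.4 FPKM in controls and 205.4 to 218.3 in mutants, and ureteric tip markers to 169.7 to 195.2 against 203.1 to 235.9. The groups overlapped in the sums of stromal markers (601.6 to 847.9 against 811.2 to 1074 FPKM) and of erythroid markers (2998 to 5983 against 3547 to 6221 FPKM). No listed marker was at 0 in any library. Embryonic globin Hbb-y as a percentage of Hbb-bs was 1.34, 1.39 and 3.45 in controls and 1.38, 1.53, 10.52 and 2.24 in mutants, so mutant replicate 3 had the highest share. The part of these shifts in cell types and globin in the values below was not tested.

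None of the 50 genes passed the test for a difference between genotypes. In limma on log2(FPKM + 1), adjusted by Benjamini-Hochberg over all 13466 genes, 0 of 50 passed an adjusted p of 0.05, against 1.53% of all genes tested (0.475% higher and 1.05% lower in mutants). The smallest adjusted p was 0.229, for Ccne1. By the adjusted p of the authors' deposited table, 0 of 50 passed, against 5.69% of the same genes, and limma-voom on reads recovered from the table also called 0, against 1.85%. The estimates leaned upward: 42 of 50 log2 differences (mutant minus control) lay above 0 and 8 below, with a median of 0.09, while 49.2% of all genes lay above 0, with a median of -0.002. Leaving out each library in turn left between 39 and 45 of the 50 above 0. At an unadjusted p under 0.05 limma had 4 of 50 higher in mutants (Ccne1, Nusap1, Tyms and Ccne2) and 0 lower, beside 5.26% and 8.48% of all genes. All 4 mutants lay above all 3 controls for 8 of 50 and below them for 0, beside 5.93% and 8.61% of all genes. By both measures the share of the 50 that was higher lay above that of all genes, and the share that was lower lay under it. The counts are small, the 50 genes were measured in the same libraries, and the shares were not compared by a test. Of the 50 intervals (95%, from limma), 46 covered 0 and 49 lay within 1.5-fold in either direction on this scale. The exception was Mki67, whose interval ran from -0.74 to 0.62.

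**Figure D1:**
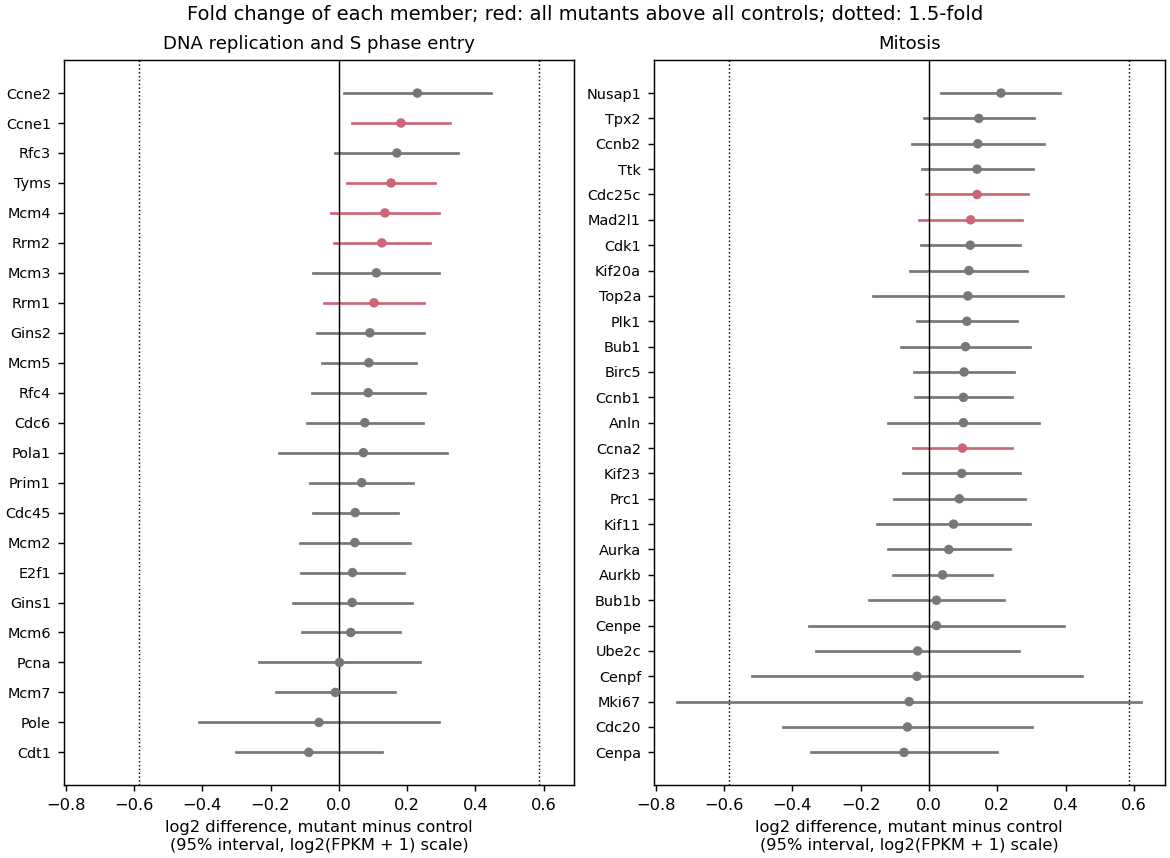
Log2 difference between mutants and controls (log2(FPKM + 1) scale, points) with its 95% interval (lines) for the 23 replication genes (left) and the 27 mitosis genes (right); red marks genes whose 4 mutants all lay above the 3 controls and dotted lines mark 1.5-fold. All points lie between -0.09 (Cdt1) and 0.23 (Ccne2), and the interval of Mki67 alone crosses the dotted lines.

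Replication and mitosis genes were also described apart, and the difference between the sets was not tested. Of the 23 replication genes 20 lay above 0, with a median log2 difference of 0.08 (0.05 without control replicate 1) and a median standard error of 0.07. Of the 27 mitosis genes 22 lay above 0, with a median of 0.10 (0.06 without mutant replicate 4) and a median standard error of 0.08. Averaged over the 23 replication genes, the log2 level was 5.05, 5.08 and 5.09 in the controls and 5.13, 5.12, 5.17 and 5.18 in the mutants, so all mutants were above all controls, while the average over all genes tested was 3.51 to 3.52 in controls and 3.48 to 3.50 in mutants. The mitosis genes averaged 5.10, 5.04 and 5.13 in the controls and 5.06, 5.12, 5.23 and 5.26 in the mutants, and the groups overlapped, with mutant replicates 1 and 2 within the range of the controls. Among the libraries mutant replicate 4 was the highest for 17 of the 50 genes and mutant replicate 3 for 15, while control replicate 1 was the highest for 0 and the lowest for 16.

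**Figure D2:**
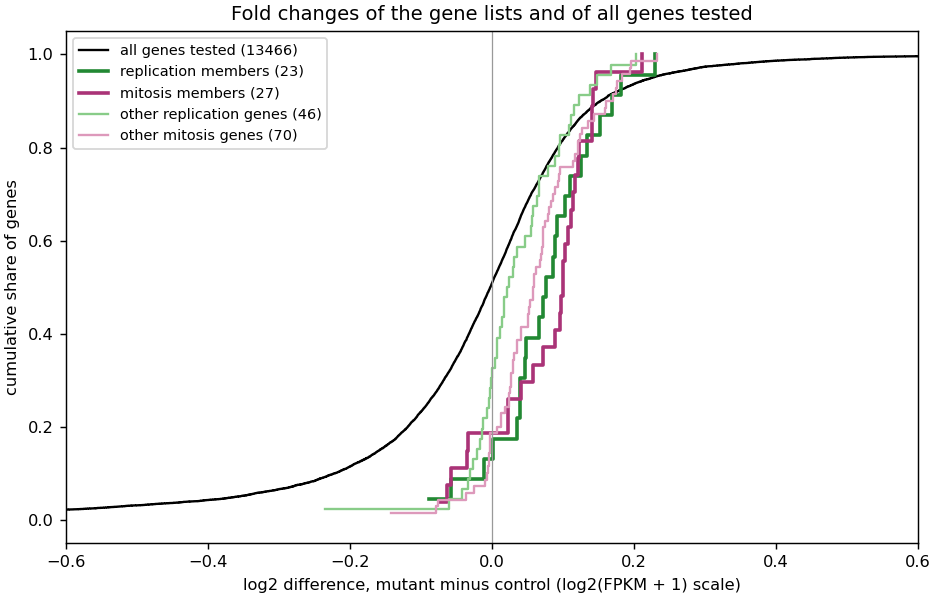
Cumulative share of genes (vertical axis) by log2 difference, mutant minus control (horizontal axis, log2(FPKM + 1) scale), for all 13466 genes tested, the 50 genes in their sets of 23 and 27, and 46 other replication and 70 other mitosis genes. The sets of 23 and 27 lie to the right of the curve of all genes up to about 0.1 and reach no further than 0.23, while all genes spread wider on both sides.

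The promoters show what these genes share in sequence. The RefSeq promoter table (GRCm38.p6) held 40 of the 50 genes, 18 replication and 22 mitosis, 2 of them with more than 1 promoter, and the 250 bases before each start were searched on both strands. An E2F motif, TTTCCCGC or TTTGGCGC, was found in 5 of 18 replication genes (27.8%: Mcm5, Mcm6, Mcm7, Cdc6 and Pola1) and in 0 of 22 mitosis genes, against 1.5% of 27025 genes. The CCAAT box (CCAAT) was found in 12 of 18 replication genes (66.7%) and 18 of 22 mitosis genes (81.8%), against 37.5% of all. The CHR core TTTGAA was in 2 replication genes (11.1%) and 8 mitosis genes (36.4%), against 18.3% of all, and all 8 of those mitosis genes (Cdk1, Ccnb2, Cdc20, Ube2c, Prc1, Kif11, Mki67 and Top2a) also held a CCAAT box, as did 6.5% of all. CCAAT on one strand can overlap CCAAT on the other, as it does in Ube2c. A match is a description of letters and not of binding, and a missing match says only that these letters are not in the window. The sequences of 4 genes are examples, picked among replication genes with an E2F motif and mitosis genes with a CHR core. Their contrast follows from that choice and is not a result about the sets. They are written 5′ to 3′ in the direction of transcription up to the base before the start. Capitals mark the motifs on either strand (GCGCCAAA, GCGGGAAA, ATTGG and TTCAAA are the reverse complements).
Mcm5, chr8:75109259-75109508, plus strand: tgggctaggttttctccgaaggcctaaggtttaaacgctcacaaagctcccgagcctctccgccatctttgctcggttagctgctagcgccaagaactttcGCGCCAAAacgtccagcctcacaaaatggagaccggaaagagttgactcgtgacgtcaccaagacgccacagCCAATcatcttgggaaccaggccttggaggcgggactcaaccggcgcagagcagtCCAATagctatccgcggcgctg
Cdc6, chr11:98907901-98908150, plus strand: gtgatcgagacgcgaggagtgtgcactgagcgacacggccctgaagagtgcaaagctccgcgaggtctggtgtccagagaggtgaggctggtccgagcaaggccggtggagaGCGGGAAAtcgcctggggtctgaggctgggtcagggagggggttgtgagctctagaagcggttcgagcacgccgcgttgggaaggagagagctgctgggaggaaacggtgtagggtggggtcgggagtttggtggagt
Cdk1, chr10:69352913-69353162, minus strand: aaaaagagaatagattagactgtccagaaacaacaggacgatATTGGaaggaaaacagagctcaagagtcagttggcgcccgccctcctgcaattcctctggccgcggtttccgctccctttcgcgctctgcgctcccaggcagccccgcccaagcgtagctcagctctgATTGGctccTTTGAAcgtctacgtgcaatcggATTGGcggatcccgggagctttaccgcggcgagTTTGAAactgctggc
Ccnb2, chr9:70421555-70421804, minus strand: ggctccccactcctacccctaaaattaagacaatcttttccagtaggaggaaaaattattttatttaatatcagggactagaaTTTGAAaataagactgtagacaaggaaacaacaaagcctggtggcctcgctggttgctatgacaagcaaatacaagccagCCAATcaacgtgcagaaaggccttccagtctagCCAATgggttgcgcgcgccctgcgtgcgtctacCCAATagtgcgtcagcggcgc
The Mcm5 promoter holds an E2F motif and a pair of CCAAT boxes, and Cdc6 holds an E2F motif alone. In Cdk1 there are 3 CCAAT boxes and 2 copies of the CHR core, and in Ccnb2 there are 3 CCAAT boxes with 1 copy of the core. In RNA none of these 4 genes passed the test: the log2 difference was 0.09 for Mcm5, 0.08 for Cdc6, 0.12 for Cdk1 and 0.14 for Ccnb2, with limma adjusted p of 0.626, 0.772, 0.479 and 0.554.

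The 3 genes of S phase entry had a median log2 difference of 0.18, above those of the other groups of replication genes. This median is the value of Ccne1, E2f1 lay at 0.04, and the groups were not compared by a test. Ccne1, which encodes cyclin E1, was at 22.2, 23.4 and 21.9 FPKM in controls against 27.2, 24.6, 26.4 and 24.4 FPKM in the mutants, a log2 difference of 0.18 ± 0.06 (SE). Every mutant exceeded every control, yet the limma adjusted p was 0.229. Its paralog Ccne2 had the highest estimate of the 23, 0.23 ± 0.10 (SE, limma adjusted p = 0.319), from 13.8, 14.3 and 12.7 FPKM in controls against 14.97, 17.4, 14.1 and 18.2 FPKM in mutants. Mutant replicates 2 and 4 were high and mutant replicate 3 lay among the controls. E2f1, a transcription factor that switches on S phase genes, had 13.8 ± 0.32 FPKM (SD, n = 3) in controls and 14.2 ± 0.87 FPKM (SD, n = 4) in mutants.

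For the 3 enzymes of deoxynucleotide supply all mutants lay above all controls, each by a small step, as for 5.93% of all genes. Tyms, the thymidylate synthase, stood at 23.8, 24.6 and 23.7 FPKM in controls against 27.1, 27.02, 25.4 and 27.7 FPKM in mutants (log2 difference 0.15 ± 0.06 SE, limma adjusted p = 0.263). Rrm2, the small subunit of ribonucleotide reductase, stood at 82.2, 89.0 and 82.9 FPKM in controls against 92.3, 90.0, 90.6 and 97.1 FPKM in mutants (0.13 ± 0.06 SE, adjusted p = 0.439). For the large subunit, Rrm1, the values were 66.5, 64.1 and 66.0 FPKM against 67.6, 66.5, 74.6 and 73.2 FPKM (0.10 ± 0.07 SE, adjusted p = 0.585). The lowest mutant exceeded the highest control by a narrow margin for both reductase subunits, and control replicate 1 and mutant replicate 2 were nearly equal in Rrm1.

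Origin licensing and helicase genes lay closest to 0 among the groups of replication genes, with a median log2 difference of 0.05 over 11 genes, 9 of them above 0. The polymerase, primase and clamp genes came next with a median of 0.07, and the groups were not compared by a test. Mcm4, a subunit of the helicase ring, was 59.4, 58.9 and 59.0 FPKM in controls against 61.9, 60.6, 71.1 and 66.8 FPKM in mutants (0.14 ± 0.07 SE, limma adjusted p = 0.472), with mutant replicate 3 highest. The controls differed by less than 1 FPKM, so a gap of under 2 FPKM to the lowest mutant was enough for the groups not to overlap. The other 5 subunits had estimates between -0.01 (Mcm7) and 0.11 (Mcm3), and their groups overlapped. Cdt1, which brings the helicase to origins, had the lowest estimate of the 23, -0.09 ± 0.09 (SE, adjusted p = 0.795), from 29.8, 31.4 and 31.04 FPKM in controls against 32.0, 24.3, 28.4 and 31.4 FPKM in mutants. Mutant replicate 2 was low and mutant replicate 1 was the highest of the 7 libraries, and without mutant replicate 2 the estimate was -0.009. Cdc45, Cdc6, Gins1 and Gins2, the remaining members of the group, lay between 0.04 and 0.09.

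Polymerase, primase and clamp genes had a median of 0.07 over 6 genes, 5 of them above 0 and none with groups apart. Pcna, the sliding clamp and the most abundant of the 50 by FPKM, was 116, 150 and 144 FPKM in controls against 139, 147, 122 and 136 FPKM in mutants, a log2 difference of 0.00 with an interval from -0.23 to 0.24. The lowest and highest values of Pcna were both in controls. Rfc3, a subunit of the clamp loader, had 37.6 ± 1.94 FPKM (SD, n = 3) in controls and 42.5 ± 3.66 FPKM (SD, n = 4) in mutants, a difference of 0.17 ± 0.08 (SE, limma adjusted p = 0.403). Rfc4 and Prim1, the small primase subunit, were at 0.09 and 0.07. Pola1 and Pole, the catalytic subunits of polymerases alpha and epsilon, were at 0.07 and -0.06 and varied more between libraries, with standard errors of 0.11 and 0.15.

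**Figure D3:**
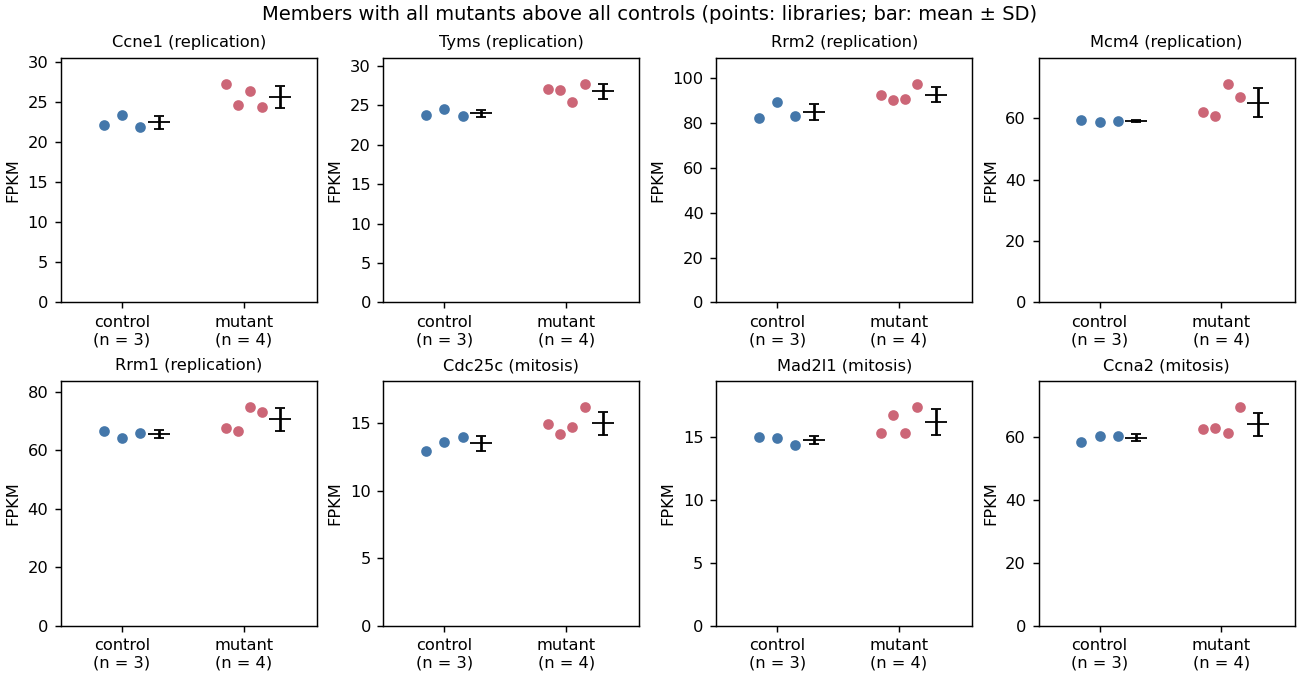
FPKM of the 8 genes whose 4 mutants all lay above the 3 controls; each panel is 1 gene, points are libraries, the bar and whiskers are the group mean and SD, and the axis starts at 0. The steps are small against the level in every panel, from 22.5 to 25.7 FPKM on average for Ccne1 and from 59.7 to 64.0 FPKM for Ccna2.

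Mitotic cyclins, Cdk1 and its activating phosphatase had 5 of 5 estimates above 0 and a median of 0.12. Ccna2, cyclin A2 of S phase and G2, was 58.4, 60.3 and 60.3 FPKM in controls against 62.6, 62.8, 61.3 and 69.4 FPKM in mutants (0.10 ± 0.06 SE, limma adjusted p = 0.602). Cdc25c, the phosphatase that activates Cdk1, was 12.9, 13.6 and 14.01 FPKM in controls against 14.9, 14.2, 14.7 and 16.2 FPKM in mutants (0.14 ± 0.07 SE, adjusted p = 0.405). In both genes mutant replicate 4 was the highest library and the other mutants lay just above the controls. Ccnb1, Ccnb2 and Cdk1 were at 0.10, 0.14 and 0.12 with overlapping groups. Pseudogenes named after Pcna, Tyms, Ccnb1 and Ccnb2 are annotated in GENCODE M21, 2 of them (Pcna-ps2 and Ccnb1-ps) also in the deposited table, so reads of these 4 genes could be shared with a copy. The kinases Plk1, Aurka and Aurkb were at 0.11, 0.06 and 0.04.

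Spindle and cytokinesis genes had 7 of 7 estimates above 0 and a median of 0.10. Nusap1, a microtubule binding protein of the spindle, had the highest estimate among mitosis genes, 0.21 ± 0.08 (SE, limma adjusted p = 0.252), from 31.6, 29.1 and 29.4 FPKM in controls against 31.03, 35.1, 35.96 and 37.9 FPKM in mutants. Mutant replicate 1 lay within the controls and the other mutants above them. Tpx2, which activates Aurora A on the spindle, was at 0.15 ± 0.07 (SE, adjusted p = 0.426). Prc1, Kif11, Kif20a, Kif23 and Anln lay between 0.07 and 0.12. Array weights, a limma option that gives libraries unequal weight in the fit (0.281 for mutant replicate 1, 2.92 for mutant replicate 4), called 9.67% of all genes and, among the 50, Nusap1 (0.30, adjusted p = 0.0115), Tpx2 (0.22, adjusted p = 0.0317) and Ccne2 (0.29, adjusted p = 0.0393). Of the settings run, it was the only one to call any of the 50.

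Checkpoint and anaphase genes had 4 of 6 estimates above 0 and a median of 0.06. Mad2l1, the checkpoint protein that inhibits Cdc20, was 14.98, 14.9 and 14.4 FPKM in controls against 15.3, 16.7, 15.3 and 17.4 FPKM in mutants (0.12 ± 0.07 SE, limma adjusted p = 0.497). The gap between its highest control and lowest mutant was smaller than the spread within the mutants. The checkpoint kinases Ttk and Bub1 were at 0.14 and 0.11, and Bub1b at 0.02. Cdc20, the activator of the anaphase promoting complex, and Ube2c, its ubiquitin conjugating enzyme, were singled out after their values were seen. Cdc20 was 88.9, 90.9 and 102.9 FPKM in controls against 105.7, 65.0, 93.2 and 102.3 FPKM in mutants, and Ube2c was 57.4, 65.6 and 63.5 FPKM in controls against 70.0, 47.1, 60.0 and 68.2 FPKM in mutants. Both were lowest in mutant replicate 2 and highest in mutant replicate 1. Cenpa, the histone H3 variant of centromeres and the lowest estimate of the mitosis genes at -0.07 ± 0.12 (SE, adjusted p = 0.889), had 55.8, 58.2 and 69.5 FPKM in controls against 64.9, 47.5, 57.2 and 63.4 FPKM in mutants. Its lowest library was also mutant replicate 2, as it was for Cdt1, and without that library its estimate was 0.02.

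Centromere and chromosome genes were the most variable group, with 3 of 6 estimates above 0, a median of -0.01 and a median standard error of 0.14 against 0.08 over all 50. Mki67, the gene of the Ki-67 proliferation antigen that coats mitotic chromosomes, was singled out after its values were seen. It had 31.03, 19.8 and 19.7 FPKM in controls against 13.7, 22.7, 32.4 and 23.1 FPKM in mutants, a 2.37-fold range with the lowest and highest library both in mutants. Cenpf, a kinetochore protein, followed the same order at its ends, with 10.1, 7.41 and 8.19 FPKM in controls against 5.29, 8.32, 10.7 and 9.84 FPKM in mutants. Top2a, the topoisomerase that untangles chromosomes, had 53.2, 43.5 and 47.7 FPKM in controls against 42.0, 51.3, 59.9 and 56.8 FPKM in mutants. All 3 genes were lowest in mutant replicate 1 and highest in mutant replicate 3. Birc5 (survivin) was steadier, at 23.1 ± 1.47 FPKM (SD, n = 3) and 24.9 ± 0.97 FPKM (SD, n = 4), and Cenpe, a kinetochore motor, was at 0.02 ± 0.16 (SE).

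**Figure D4:**
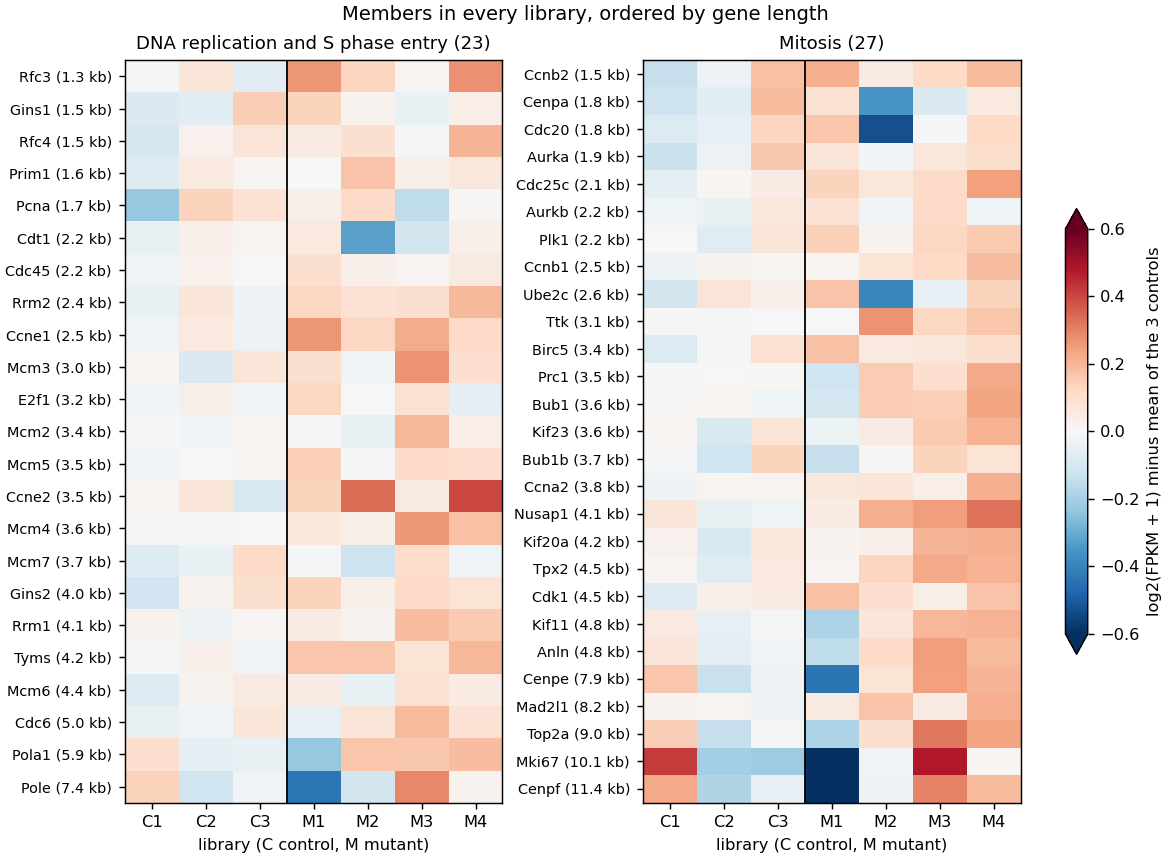
Each of the 50 genes (rows, ordered by gene length in kb) in each library (columns, C1 to C3 controls and M1 to M4 mutants), coloured by log2(FPKM + 1) minus the mean of the 3 controls. Of the 8 genes of at least 5 kb at the foot of the panels, all but Mad2l1 are blue in M1 and all are red in M3. Cdt1, Cenpa, Cdc20 and Ube2c are blue in M2.

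The variation between libraries went with gene length. Length here is what the deposited FPKM and mean count imply, from 1.32 kb (Rfc3) to 11.36 kb (Cenpf). Of the 8 genes of at least 5 kb (Cdc6, Pola1, Pole, Cenpe, Mad2l1, Top2a, Mki67 and Cenpf), 7 were lowest in mutant replicate 1, all but Mad2l1. Among the 8, 6 were highest in mutant replicate 3 and 2 in mutant replicate 4. Their median log2 deviation from the control mean in controls was 0.14, -0.13 and -0.03, and in mutants it was -0.33, 0.08, 0.27 and 0.19. The median of all 3786 tested genes of that length deviated in the same direction in each library, by 0.05, -0.02 and -0.03 in controls and by -0.17, 0.03, 0.06 and 0.02 in mutants. The Spearman correlation of length was taken with the deviation from the mean of all 7 libraries. Across the 50 genes, this correlation was -0.68 in mutant replicate 1, 0.65 in mutant replicate 3 and 0.58 in control replicate 1. In the other 4 libraries it lay between -0.51 and 0.24. Over all genes the same correlation was -0.64, 0.36 and 0.34 in the 3 libraries named, and between -0.19 and 0.24 in the others. These are correlations across genes of 1 library, given as a description.

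**Figure D5:**
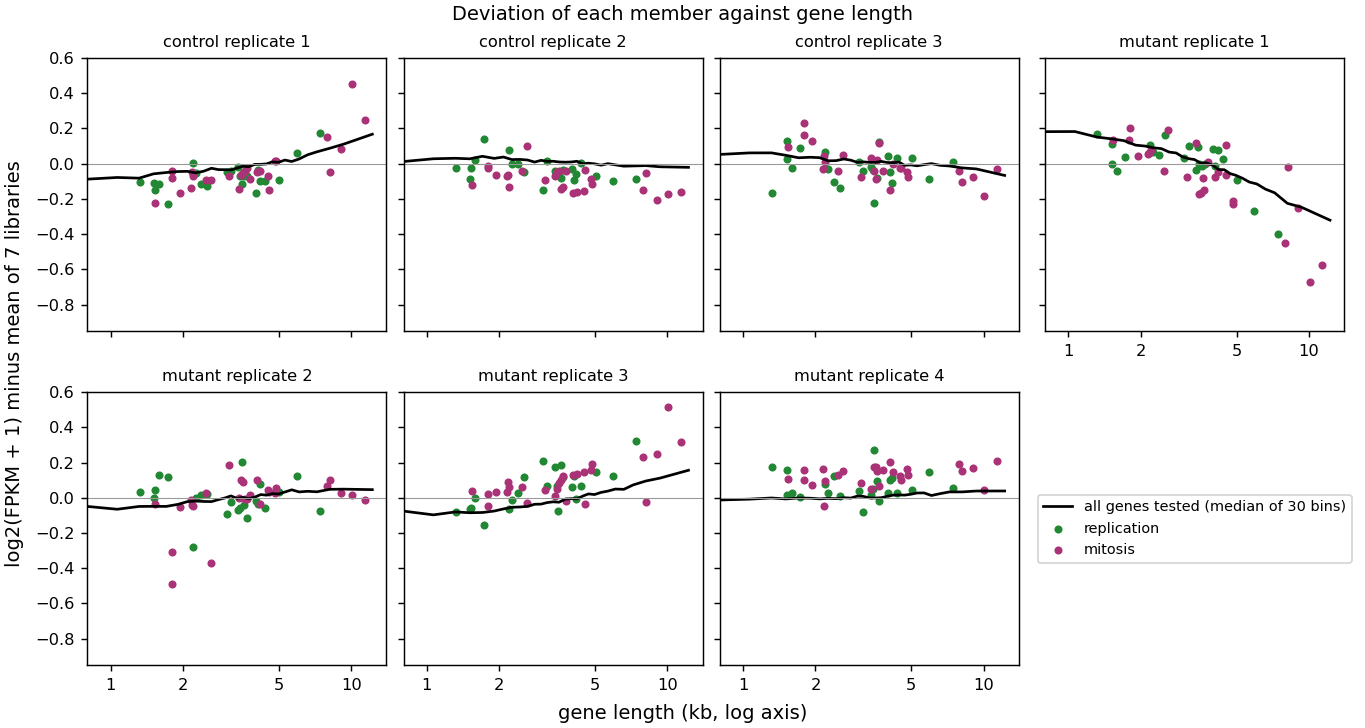
Log2(FPKM + 1) of each of the 50 genes minus its mean over the 7 libraries (vertical axis) against gene length in kb (log axis), in 1 panel per library; the black line is the median of all genes tested in 30 bins of length. Points and line fall with length in mutant replicate 1 and rise with length in control replicate 1 and mutant replicate 3.

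The comparison of genotypes in the long genes rested on which libraries were used. Their median log2 difference was 0.05 with all libraries, with 5 of 8 above 0, 0.16 without mutant replicate 1 (8 of 8 above 0), 0.11 without control replicate 1 (8 of 8) and -0.01 without mutant replicate 3 (4 of 8). When each library's trend on length over all genes was removed, an alternative chosen after seeing the data, the median standard error of the 8 genes went from 0.14 to 0.09. That of Mki67 went from 0.29 to 0.20 and that of Cenpf from 0.21 to 0.12, while that of Mad2l1 rose from 0.066 to 0.075. Limma then called 3.13% of all genes and 0 of the 50, with a smallest adjusted p of 0.13. The medians of the sets were 0.08 for replication and 0.10 for mitosis. The 33 genes between 2 and 5 kb had a median of 0.10 with all libraries and between 0.08 and 0.12 with any 1 library left out. The 9 genes under 2 kb had a median of 0.06 with all libraries, -0.005 without control replicate 1 (4 of 9 above 0) and 0.11 without control replicate 3 (9 of 9).

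By level, Pcna came first with 136 ± 12.9 FPKM (SD over 7 libraries), then Cdc20 with 92.7 ± 13.9, Rrm2 with 89.2 ± 5.21, Mcm6 with 74.9 ± 2.95 and Mcm5 with 72.7 ± 3.44 FPKM. The lowest were Cdc6 with 10.01 ± 0.68, Cenpf with 8.56 ± 1.87 and Pole with 6.41 ± 1.13 FPKM. Of the 49 pairs of neighbours in this order, 4 were further apart than the sum of their SDs: Pcna and Cdc20, Rrm2 and Mcm6, Cdc45 and Ttk, and Ttk and Mad2l1. The other neighbours were not further apart than that sum. Among these, the first gene was still higher in all 7 libraries for Bub1b and Tpx2, Prim1 and Cdk1, and Cenpf and Pole. The 6 subunits of the Mcm ring, which is built with 1 copy of each, lay between 62.5 and 74.9 FPKM.

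Further genes of the same processes were not called by limma either. Of 46 other replication genes 0 passed in limma, 32 lay above 0 and the median log2 difference was 0.02. With 1 library left out the median ran from 0.011 (without mutant replicate 3) to 0.057 (without control replicate 3), with 26 to 36 genes above 0, and it was 0.056 without mutant replicate 1 and 0.047 without mutant replicate 2. Quantile scaling gave 0.051, with 38 above 0. The smallest p values were those of Rpa1, a subunit of the single-strand binding protein (30.1 ± 1.46 FPKM in 3 controls, 34.8 ± 0.84 in 4 mutants, SD; 0.20 ± 0.06 SE, limma adjusted p = 0.145), and Gins3 (0.15 ± 0.07 SE, adjusted p = 0.391). Rpa1 alone passed in the authors' deposited table, with an adjusted p of 0.0469. Of 70 other mitosis genes 0 passed, 57 lay above 0 and the median was 0.06. It was 0.028 without mutant replicate 4 (46 above 0) and 0.099 without mutant replicate 1 (62 above 0). The smallest p values were those of the kinetochore gene Cenpn (0.18 ± 0.07 SE, adjusted p = 0.296) and the spindle gene Ckap2 (0.19 ± 0.08 SE, adjusted p = 0.315). At an unadjusted p under 0.05 limma had 1 and 3 genes of these lists, all higher in mutants, beside 5.26% of all genes higher and 8.48% lower. From both lists limma-voom called 0, against 1.85% of all genes.

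A list of other G1, E2F and Myc genes, which leaves out Ccne1, Ccne2 and E2f1, did not lean upward. Of 18 G1 cyclins, kinases, E2F and Myc factors 0 passed in limma. At an unadjusted p under 0.05 limma had 3, all lower in mutants, beside 8.48% of all genes. In this list 5 genes lay above 0 and 13 below, and the median was -0.05 (-0.021 without mutant replicate 1 and -0.079 without mutant replicate 4). Myc, a transcription factor that promotes growth and division, was 27.3, 30.3 and 30.3 FPKM in controls against 25.9, 23.01, 23.8 and 25.6 FPKM in mutants (-0.24 ± 0.07 SE, limma adjusted p = 0.135, and 0.0463 with the trend on length removed). Its relative Mycn, which is active in nephron progenitors, was 22.7, 23.8 and 25.6 FPKM in controls against 19.5, 13.6, 17.2 and 20.9 FPKM in mutants (-0.43 ± 0.13 SE, adjusted p = 0.163), and its adjusted p in the authors' deposited table was 0.049. For both genes all mutants lay below all controls. The markers of nephron progenitors given above were lower in the same libraries, and their part in the values of Mycn and Myc was not tested.

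Of 17 genes that hold cells out of the cycle, 15 were tested and 1 passed, against 1.53% of all genes tested. Of these 15 brakes 7 lay above 0 and 8 below, with a median log2 difference of -0.016. Tob1, an antiproliferative protein of the BTG and TOB family, fell from 16.5, 17.2 and 18.5 FPKM in controls to 12.4, 11.4, 10.9 and 14.1 FPKM in mutants (-0.48 ± 0.09 SE, limma adjusted p = 0.0438). The call was lost when any 1 library other than mutant replicate 1 was left out, with adjusted p from 0.0531 to 0.212, and with a pseudocount of 0.1 (0.0535), a minimum of 5 FPKM (0.0587) or quantile scaling (0.0517). With any 1 library left out, the log2 difference stayed between -0.55 and -0.43. Cdkn1a, the inhibitor p21, and Btg2 were named after their values were seen. Cdkn1a was 7.66, 7.18 and 7.73 FPKM in controls against 12.1, 12.2, 8.92 and 9.57 FPKM in mutants, all above the controls (0.45 ± 0.11 SE, limma adjusted p = 0.0945), and its adjusted p in the authors' deposited table was 0.00607. Btg2 had 10.03 ± 0.34 FPKM (SD, n = 3) in controls and 12.04 ± 0.90 FPKM (SD, n = 4) in mutants (0.24 ± 0.07 SE, limma adjusted p = 0.159).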

How the data were processed

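The 7 RNA libraries (3 controls, 4 mutants; whole kidneys at E15.5) were grouped by sample title. Libraries were made with a directional kit, per the labels' protocols. The submitters' processing notes name STAR 2.6.0c, HTSeq 0.6.1p2, DESeq2, Trim Galore 0.5.0 and FastQC 0.11.5 with the build mm39 (GRCm39), without giving each tool's role. Which strand was counted and how gene length was defined are not given in the sources used here. Per the file headers, the authors deposited 1 table of 16167 genes with FPKM per library, the mean of normalized counts as a signal, and the log2 fold change, its error, the test statistic (a score), and raw and adjusted p-values of DESeq2. Values from these deposited log2 and p-value columns are quoted as they stand. The lowest deposited mean count was 18.5, and 14 genes have no p-value.

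The main test was limma (version 3.58.1, under R 4.3.3), two-sided, fitted to log2(FPKM + 1) with the trend and robust options of its empirical Bayes step. It covered the 13466 genes that reached 1 FPKM in 3 or more libraries (2701 left out), and calls were made at a Benjamini-Hochberg adjusted p under 0.05. Reads per library were recovered from mean count and FPKM, with 100% of values within 0.05 of a whole number, and they gave depth, gene length and the limma-voom fit. All values are relative to the library total, so a shift of all RNA would not be seen.

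The 50 genes and the lists were chosen with earlier results of these data known. The rule for named genes gives values in every library for called genes, genes whose groups do not overlap, and the highest and lowest estimate of each set, and up to 4 called genes, or else the 2 with the smallest p, of the other lists; 1 marker gene that the rule names is not reported here. Promoters are printed for the 2 genes of each set with the smallest p that hold the set's motif. Alternatives were quantile and median-of-ratios scaling, no filter, 5 FPKM as the minimum, 0.1 as the pseudocount, a block for replicate number, array weights, the deposited adjusted p, limma-voom, leaving out each library and, after seeing the data, removal of each library's trend on gene length (lowess, span 0.3). The tools were Python 3.11.15, numpy 2.4.6, pandas 2.3.3, scipy 1.17.1 and matplotlib 3.10.9. The annotation at hand (GENCODE M21) and the promoters (RefSeq) are on GRCm38, so coordinates are given for promoters alone.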

Additional observations from a re-analysis of the deposited data

Results flagged for a closer look

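Among 52 groups of mutant values examined, 1 held a library far from the others. Chance alone flags about 1 group in 20, so 1 flag among 52 is not more than chance gives. Pola1, the catalytic subunit of DNA polymerase alpha, was 10.6 FPKM in mutant replicate 1 and between 14.2 and 14.5 FPKM in the other 3 mutants, so the gap was 0.936 of the whole range, above Dixon's critical value for 4 samples. Its controls were 13.6, 12.1 and 12.2 FPKM. Pola1 is 5.93 kb long, and mutant replicate 1 was also the lowest library for 7 of the 8 genes of at least 5 kb among the 50.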

How the results depend on the processing

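The number of genes called over the whole table moved with most settings: 206 in the fit reported, 109 with a pseudocount of 0.1, 60 with a minimum of 5 FPKM (31 higher and 29 lower, against 64 and 142), 1302 with array weights (433 higher), 422 with the trend on length removed, 766 by the deposited adjusted p, and 11 to 486 with 1 library left out (11 without control replicate 2, 486 without mutant replicate 1). The 50 genes had 0 calls throughout, except for 1 replication and 2 mitosis genes with array weights. Without control replicate 3 the replication median was 0.108, and over all omissions it ran from 0.050 to 0.108 and the mitosis median from 0.064 to 0.143, and array weights gave a mitosis median of 0.173. Array weights called 2 other replication genes, 4 other mitosis genes (median 0.128), 1 G1 gene (median of the list -0.012) and 4 brakes. The deposited adjusted p called 1 other replication gene, 1 G1 gene and 2 brakes, and 1 G1 gene was called with the trend on length removed. Brakes had 0 calls with a pseudocount of 0.1, a minimum of 5 FPKM and quantile scaling, and 0 to 1 with a library left out.

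With the replicate number as a block, 2 genes were called in all, 0 of the 50 and 0 brakes, and Irx3 was at -1.236 and no longer passed. Deviations of same-numbered libraries from their group mean correlated at -0.156, 0.028 and 0.098. Those of different-numbered libraries correlated between -0.253 and 0.141. The groups are small, so these values cannot settle whether the numbers pair the samples. Irx3 ran from -1.236 to -1.024 under omissions and the call was lost without control replicate 1 (-1.12) or 2 (-1.143). Estimates near 0 changed sign: Cenpa was 0.021 without control replicate 3 and 0.020 without mutant replicate 2, within -0.135 to 0.021 over all omissions. Irx5 was 0.026 with quantile scaling, 0.058 with array weights, 0.029 in the authors' deposited table, and -0.115 to 0.113 under omissions. In 100 bases before the start, E2F motifs were in 5.6% of replication genes and 0.7% of all, CCAAT in 21.6% of all, TTTGAA in 6.8% of all, and both of the latter in 0% of replication genes and 1.3% of all. The cause of these changes was not tested.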

Other observations

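The spacing of CCAAT boxes, counted after the promoters had been seen, differed in share between the sets. Among the 22 mitosis genes with a promoter sequence, 12 (54.5%) held 2 or more CCAAT boxes within 250 bases of the start, against 5 of 18 replication genes (27.8%) and 11.5% of all 27025 genes. Neighbouring boxes 30 to 34 bases apart were found in 5 of the 22 mitosis genes (22.7%: Aurka, Ccnb1, Ccnb2, Cdk1 and Ube2c), in 0 of the 18 replication genes and in 1.5% of all genes. The lists are short and were chosen by function, and no test was made.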
